A study of Mus musculus with 4 samples.

Results

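Noncanonical Wnt and planar polarity genes were examined in mouse embryos that lack nucleoredoxin, the thioredoxin-related protein encoded by Nxn. The members were Wnt5a, Wnt11, Ror1, Ror2, Ryk, Fzd3, Fzd6, Vangl1, Vangl2 and Celsr1, taken as every gene probe whose gene name in the scanner files is one of these symbols. They make up 10 of 27670 named genes and 18 of 41174 gene probes on the array, and 17 of the 18 probes, covering all 10 genes, were well enough above background to be tested. The groups were E11.5 embryos labelled NRX-/- (Nxn-null), E11.5 embryos labelled NRX+/+ (wild type), E9.5 NRX-/- embryos and E9.5 NRX+/+ embryos, where E9.5 and E11.5 are embryonic days. All came from C57BL/6J mice, and the sample titles call the null RNA KD and the wild-type RNA NRX. Each of 4 two-colour Agilent whole-genome arrays compared null with wild-type RNA of 1 stage, with 2 arrays per stage and the dyes exchanged between them. The null RNA was in Cy5 on replicate 1 and in Cy3 on replicate 2. How many embryos were pooled is not stated, nor whether both arrays of a stage used the same extracts. P-values therefore measure only how far arrays differ, which may be technical.

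Wnt proteins are secreted signals. In the canonical branch they stabilise beta-catenin, whereas in the noncanonical branches ligands such as Wnt5a and Wnt11 act through Frizzled, Ror and Ryk receptors on the cytoskeleton and on JNK and calcium signalling. The planar cell polarity branch orients cells within a tissue plane through Frizzled and Celsr proteins on one cell face and Vangl and Prickle proteins on the opposite one, and in mouse embryos it is needed for closure of the neural tube, for elongation of the body axis and for limb and face outgrowth. Nucleoredoxin binds Dishevelled, which serves both branches. In humans, variants of NXN, WNT5A, ROR2, DVL1, DVL3 and FZD2 are known in Robinow syndrome, a disorder of limb and face growth.

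On all 4 arrays Nxn read lower in null RNA. Its probe A_52_P57013 had log2 ratios of null over wild type of -1.24 and -1.42 at E11.5 and -1.04 and -0.93 at E9.5, which left 39.8% and 50.4% of the wild-type level. Which part of the gene is altered is not stated in the labels, so these probes check the genotype only in part. All 4 arrays shared 1 slide and 1 scan according to the file headers. Between 48.2% and 70.3% of gene probes were well above background in a channel, always more in Cy5 than in Cy3 on the same array. Across the 24984 probes tested, the Pearson correlation between the dye-swapped pair was 0.241 for E11.5 and 0.425 for E9.5, as a description of the arrays. The ratios of the 2 arrays had the same sign for 44.5% of all probes at E11.5 and 52.1% at E9.5, and for 7 and 9 of the 17 member probes.

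The 10 genes showed no common shift between genotypes. The median log2 ratio over the 17 tested member probes was 0.03 at E11.5 and -0.05 at E9.5, beside medians of 0.01 and 0.00 over all probes tested. At each stage 14 of the 17 ratios lay within 0.25 of 0. By limma on the 4 arrays with a dye term (adjusted p under 0.05 over all probes, the threshold for every call below), 3 member probes were called at E11.5, with 2 higher and 1 lower in the null RNA, where 8.48% of all probes were called (3.17% higher and 5.31% lower). At E9.5, 7 were called, with 3 higher and 4 lower, where 22.3% of all probes were called (8.8% higher and 13.5% lower). The change of the ratio between the stages was called for 3 probes, 2 with a higher and 1 with a lower ratio at E11.5, against 11.7% of all probes (7.07% and 4.61%). By limma over the 2 stage averages, no member probe and no probe on the array (0%) was called for a ratio shared by both stages, although 3 of 17 members and 7.54% of all probes had an unadjusted p under 0.05. The ratio had 1 sign on all 4 arrays for 5 of 17 member probes and for 18.3% of all probes. Without the dye term, the only member call left was that of Fzd6 at E11.5.

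**Figure D1:**
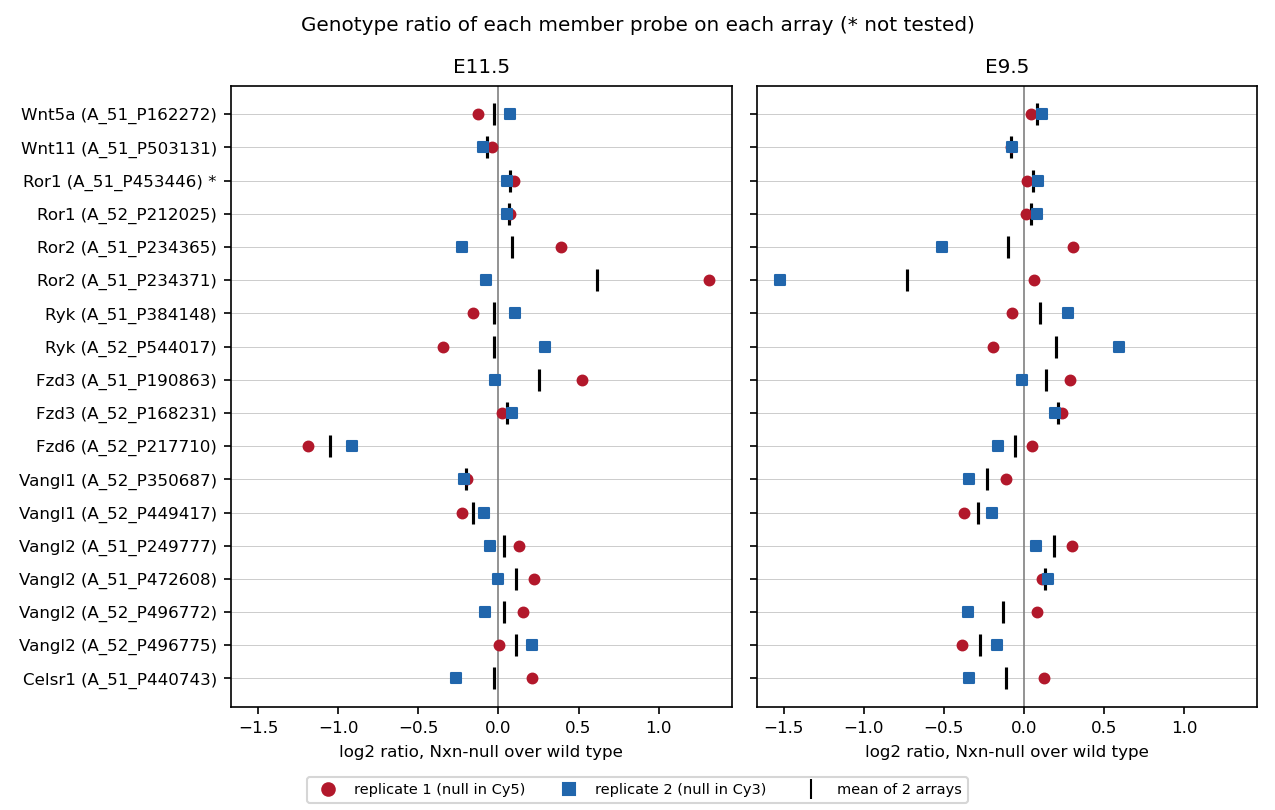
Log2 ratio of Nxn-null over wild type (horizontal axis) for the 18 member probes (rows), at E11.5 (left) and E9.5 (right). Circles are replicate 1 with the null RNA in Cy5, squares are replicate 2 with the null RNA in Cy3, and bars are the mean of the 2 arrays. Fzd6 sits at -1.19 and -0.91 at E11.5 and close to 0 at E9.5, most other probes stay within 0.25 of 0 in the mean, and the dye-swapped arrays lie far apart for both Ror2 probes and for Ryk probe A_52_P544017.

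Fzd6 is a Frizzled receptor of the planar polarity branch that orients hair follicles in the mouse. Among the members, it showed the largest difference between null and wild-type RNA whose 2 arrays were alike. Its single probe read 7.53 and 7.92 log2 units in E11.5 null RNA, against 8.71 and 8.84 in E11.5 wild-type RNA. At E9.5 it read 8.83 and 8.77 in null RNA, against 8.78 and 8.93 in wild-type RNA. The E11.5 null channels lay below the other 6, which did not separate by genotype or stage. The log2 ratio at E11.5 was -1.05 ± 0.19 (SD, n = 2 arrays), or 48.3% of the wild-type level, with a limma adjusted p of 6.29e-09, and Fzd6 was the only member at least 2-fold lower there, as were 0.156% of all probes. At E9.5 it was -0.05 ± 0.15 (adjusted p = 0.656), and the ratio at E11.5 minus that at E9.5 was -0.996 ± 0.11 (limma SE, adjusted p = 1.03e-06). The probe was well above background in all 8 channels, with a green local background of 52 to 56.5 scanner units beside array medians of 54 to 59.5. In whole-embryo RNA, fewer cells of a type and less RNA per cell cannot be told apart. Sex-linked markers, given with the cell type markers below, also differed between null and wild-type RNA at E11.5. Sex and genotype therefore cannot be told apart at that stage.

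The call for Fzd6 at E11.5 held in 11 of 14 alternative settings, with ratios between -1.98 and -0.91 and adjusted p-values up to 0.323. It was lost with the Feature Extraction log ratio (-1.98), where no probe on the array was called at E11.5, and without either E11.5 array (-0.91 without replicate 1 and -1.19 without replicate 2), where the lone array of that stage is assumed to vary like the others.

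**Figure D2:**
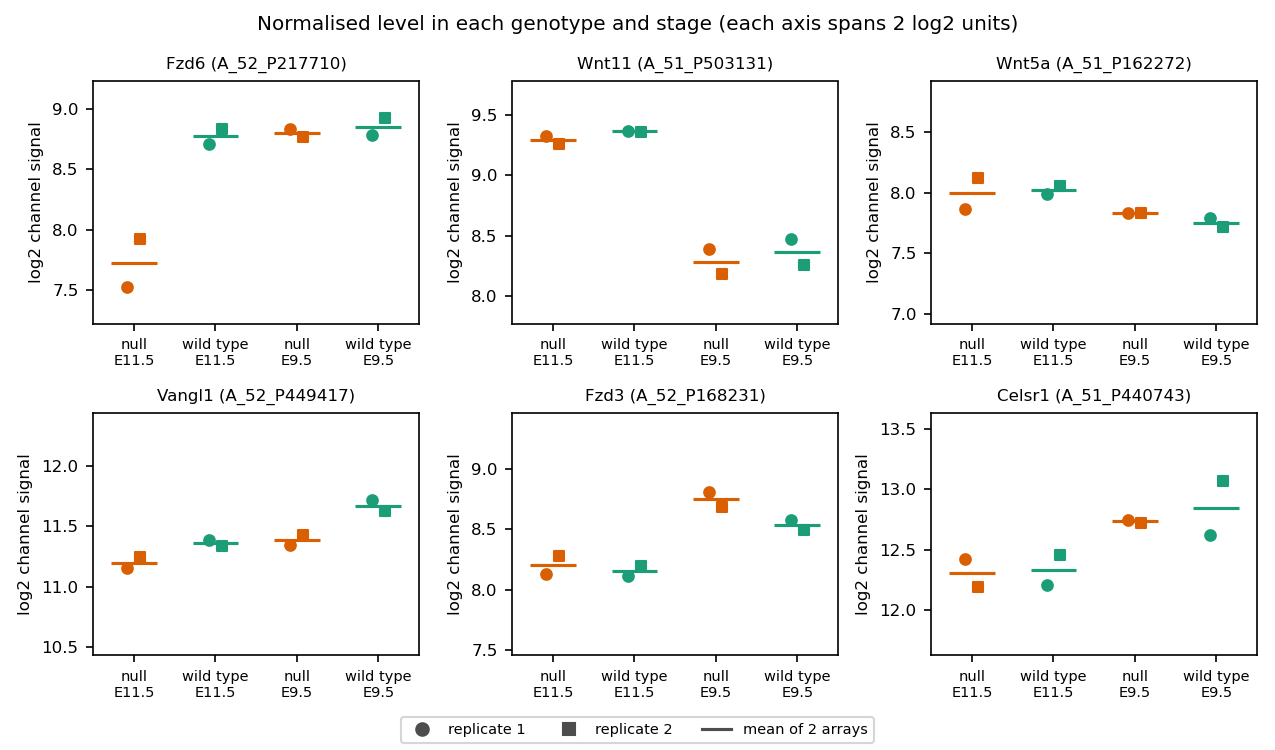
Normalised log2 channel signal (vertical axis, each panel spanning 2 log2 units) of 6 member probes in null and wild-type RNA at E11.5 and E9.5. Circles and squares are replicates 1 and 2, and lines are their mean. The E11.5 null channels of Fzd6 lie at 7.53 and 7.92 while the other 6 channels lie between 8.71 and 8.93; Wnt11 is higher at E11.5 in both genotypes, and Celsr1 and Fzd3 are lower.

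Wnt5a, the ligand of Ror receptors that drives limb, face and axis outgrowth, differed little between genotypes. Its probe read 7.86 and 8.12 log2 units in E11.5 null RNA, against 7.99 and 8.05 in wild-type RNA, and 7.83 and 7.83 in E9.5 null RNA, against 7.79 and 7.71 in wild-type RNA. The genotypes overlapped at E11.5, while at E9.5 both null channels were above both wild-type channels by at most 0.12. The log2 ratios were -0.03 ± 0.14 and 0.08 ± 0.05 (SD, n = 2 arrays; limma adjusted p = 0.864 and 0.412). By size of the mean the order was E11.5 wild type, E11.5 null, E9.5 null and E9.5 wild type, and neither pair of genotypes at 1 stage was called apart.

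Wnt11, a noncanonical ligand of the heart, somites and kidney, was close to equal between genotypes and differed between stages. It read 9.33 and 9.26 log2 units in E11.5 null RNA, against 9.37 and 9.36 in wild-type RNA, and 8.39 and 8.18 in E9.5 null RNA, against 8.47 and 8.26 in wild-type RNA. The null channel was below the wild-type channel on all 4 arrays, by 0.04 to 0.10, with ratios of -0.07 ± 0.04 and -0.08 ± 0.0027 (SD, n = 2 arrays) that were not called (adjusted p = 0.633 and 0.425). All 4 E11.5 channels lay above all 4 E9.5 channels. The level at E11.5 was 2.01-fold that at E9.5, with log2 differences of 0.94 and 1.08 in null and 0.90 and 1.10 in wild-type RNA for replicates 1 and 2 (limma over the 2 genotypes, adjusted p = 0.00534), and this call held in all 6 alternative settings, between 0.92 and 1.09.

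Ror1 and Ror2 are receptor tyrosine kinases that bind Wnt5a. Ror1 probe A_52_P212025 had ratios of 0.07 and 0.05 at E11.5 and 0.01 and 0.08 at E9.5, higher in the null RNA on all 4 arrays but not called (limma adjusted p = 0.662 and 0.649). That probe was dim, well above background in 6 of 8 channels. Over the alternative settings its ratio ran from -0.02 to 0.50 at E11.5 and from 0.01 to 0.38 at E9.5, called in 0 of 13. The other Ror1 probe, A_51_P453446, was well above background in 2 of 8 channels, so it was not tested. Its mean ratios of 0.07 and 0.05 came from signals near the limit of detection.

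The 2 Ror2 probes did not give the same result. Probe A_51_P234365 read 9.14 and 8.84 log2 units in E11.5 null RNA, against 8.75 and 9.06 in wild-type RNA, and 9.12 and 8.61 in E9.5 null RNA, against 8.81 and 9.12 in wild-type RNA. Whichever genotype carried Cy5 was the higher one on each of the 4 arrays, and the mean ratios of 0.08 ± 0.44 and -0.10 ± 0.58 (SD, n = 2 arrays) were not called (limma adjusted p = 0.557 and 0.303). Probe A_51_P234371 had ratios of 1.31 and -0.08 at E11.5 and 0.06 and -1.53 at E9.5. Its means of 0.62 at E11.5 and -0.73 at E9.5 and their difference of 1.35 were all called (limma adjusted p = 1.39e-06, 5.26e-08 and 1.55e-09), yet each rested on 1 array of the stage. The ratio became -0.08 without E11.5 replicate 1 and 0.06 without E9.5 replicate 2.

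Those are the 2 arrays on which the green local background of probe A_51_P234371, in column 1 of 85 at the edge of the array, was 240 and 399 scanner units, against array medians of 59.5 and 58. On the other arrays it was 73 and 52. The green spot signal was 247 on E11.5 replicate 1 and 389 on E9.5 replicate 2, about the level of that background, whereas the red signal stood at 182 and 185 beside a background of 61 and 63. With the Feature Extraction log ratio the signs turned, to -0.60 at E11.5 and 1.46 at E9.5. Without subtraction of the local background, an alternative added after the values were seen, they turned as well, to -0.37 and 0.92. At probe A_51_P234365 the green local background was 53.5 to 60.5 on all 4 arrays, and no Ror2 ratio was called there.

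**Figure D3:**
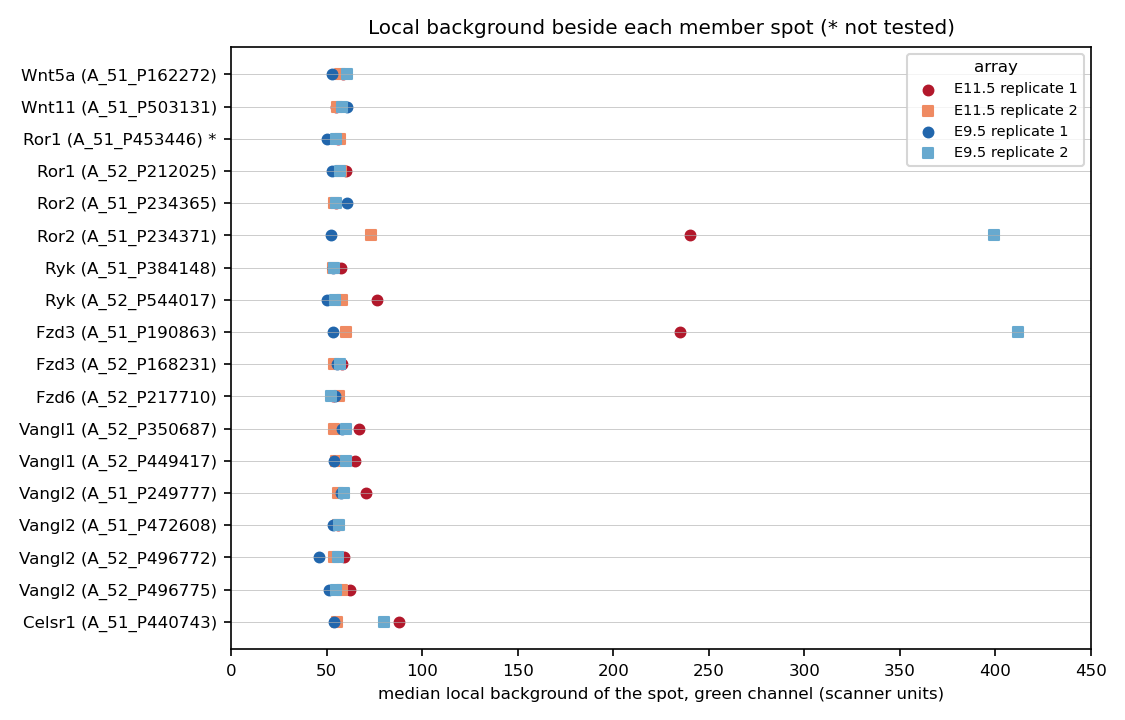
Median local background in the green channel (horizontal axis, scanner units) beside each of the 18 member spots (rows) on the 4 arrays. Ror2 probe A_51_P234371 and Fzd3 probe A_51_P190863 read 399 and 412 on E9.5 replicate 2 and 240 and 235 on E11.5 replicate 1, while the other 16 member spots stay between 46 and 88 on all 4 arrays.

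Ryk, a Wnt receptor with an inactive kinase domain, was read by 2 bright probes that followed the dye. Probe A_51_P384148 had ratios of -0.16 and 0.10 at E11.5 and -0.07 and 0.27 at E9.5, and neither mean was called (limma adjusted p = 0.878 and 0.293). Probe A_52_P544017 had -0.35 and 0.29 at E11.5 and -0.19 and 0.60 at E9.5. On both probes the null RNA was the higher one in Cy3 and the lower one in Cy5, at each stage. The E9.5 mean of A_52_P544017, 0.20 ± 0.55 (SD, n = 2 arrays), was called (limma adjusted p = 0.0285) although its 2 arrays had opposite signs, and without E9.5 replicate 2 it was -0.19.

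Fzd3, a Frizzled receptor needed for axon guidance and, together with Fzd6, for neural tube closure in the mouse, was read by 2 probes. Probe A_52_P168231 read 8.13 and 8.28 log2 units in E11.5 null RNA, against 8.11 and 8.20 in wild-type RNA, and 8.81 and 8.68 in E9.5 null RNA, against 8.57 and 8.49 in wild-type RNA. The null channel was higher on all 4 arrays, and at E9.5 the genotypes did not overlap. The ratio was 0.21 ± 0.03 at E9.5 (SD, n = 2 arrays; limma adjusted p = 0.0203), 1.16-fold higher in the null RNA, and 0.05 ± 0.05 at E11.5 (adjusted p = 0.733), and the difference between the stages was not called (-0.16, adjusted p = 0.299). The E9.5 call held in 3 of 12 alternative settings, with ratios from 0.19 to 0.36.

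The other Fzd3 probe, A_51_P190863, was called at E11.5 (0.25 ± 0.38, adjusted p = 0.0197) from ratios of 0.52 and -0.02. It lies in row 532, the last row of the array, where the green local background was 235 on E11.5 replicate 1 and 412 on E9.5 replicate 2. On E11.5 replicate 2 its spot read 76.2 in green and 61.1 in red, beside backgrounds of 60 and 57, and was above background in neither channel, whereas on E11.5 replicate 1 it read 472 and 661. The ratio was -0.02 without E11.5 replicate 1 and -0.05 without subtraction of the local background. A further probe, A_52_P502351, is listed in the files under the name D930050A07Rik, which the RefSeq table pairs with Fzd3. It falls outside the rule and had mean ratios of -0.04 at E11.5 and 0.09 at E9.5, neither called (limma adjusted p = 0.832 and 0.342).

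Vangl1 and Vangl2 are transmembrane proteins of the planar polarity core, and loss of Vangl2 leaves the mouse neural tube open. Both Vangl1 probes were lower in the null RNA on all 4 arrays. Probe A_52_P449417 read 11.16 and 11.24 log2 units in E11.5 null RNA, against 11.39 and 11.33 in wild-type RNA, and 11.34 and 11.43 in E9.5 null RNA, against 11.72 and 11.63 in wild-type RNA, without overlap of the genotypes at either stage. Probe A_52_P350687 had ratios of -0.19 and -0.21 at E11.5 and -0.11 and -0.34 at E9.5. The E9.5 means of -0.28 ± 0.13 and -0.23 ± 0.16 (SD, n = 2 arrays), or 82.1% and 85.4% of the wild-type level, were called (limma adjusted p = 0.00246 and 0.0162), and the E11.5 means of -0.16 ± 0.10 and -0.20 ± 0.01 were not (adjusted p = 0.151 and 0.0622). The change of the ratio between the stages was 0.12 ± 0.09 and 0.02 ± 0.09 (limma SE) and was not called (adjusted p = 0.441 and 0.916). Averaged over the stages the ratios were -0.22 ± 0.07 and -0.22 ± 0.06 (limma SE, n = 2 stages), with unadjusted p-values of 0.0289 and 0.0218 and adjusted ones of 0.594 and 0.564. The E9.5 calls held in 7 of 14 and 4 of 12 alternative settings, and the sign was negative in all of them.

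The 4 Vangl2 probes disagreed at E9.5 and lay close together at E11.5. At E11.5 their mean ratios ran from 0.03 to 0.11 and none was called. At E9.5 probe A_51_P249777 was higher in the null RNA (0.19 ± 0.16, SD, n = 2 arrays; limma adjusted p = 0.0388) and probe A_52_P496775 was lower (-0.28 ± 0.16, adjusted p = 0.0031). The remaining probes, A_51_P472608 and A_52_P496772, had 0.13 and -0.13 and were not called. Probe A_52_P496775 read 11.93 and 12.22 log2 units in E11.5 null RNA, against 11.93 and 12.01 in wild-type RNA, and 11.98 and 12.02 in E9.5 null RNA, against 12.37 and 12.19 in wild-type RNA. Its ratio differed between the stages by 0.38 ± 0.09 (limma SE, adjusted p = 0.00655), a call held in 6 of 14 alternative settings, and with the probes of the gene averaged the difference was 0.09 and the E9.5 ratio -0.02. No single direction for Vangl2 at E9.5 follows from these probes.

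Celsr1, an atypical cadherin that links planar polarity proteins across neighbouring cells, read 12.42 and 12.19 log2 units in E11.5 null RNA, against 12.21 and 12.46 in wild-type RNA, and 12.75 and 12.72 in E9.5 null RNA, against 12.62 and 13.06 in wild-type RNA. The genotypes overlapped at both stages, with the Cy5 RNA higher on each array. The ratios of -0.03 ± 0.33 and -0.11 ± 0.33 (SD, n = 2 arrays) were not called (limma adjusted p = 0.874 and 0.238).

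Between the stages, 5 of the 17 member probes were called by limma over the 2 genotypes, with 1 higher and 4 lower at E11.5, where 42.4% of all probes were called (19.5% higher and 22.9% lower). Stage and array cannot be told apart here, and the channels of an array share its effects, so these p-values are too small. Beside Wnt11, the called probes were both Fzd3 probes, Celsr1 and Vangl1 probe A_52_P449417. Celsr1 was lower at E11.5 by a log2 difference of -0.43 in null and -0.51 in wild-type RNA (adjusted p = 0.0114), a call held in all 6 alternative settings. Fzd3 probe A_52_P168231 differed by -0.54 and -0.38 (adjusted p = 0.0147, held in all 5 settings), and Vangl1 probe A_52_P449417 by -0.19 and -0.31 (adjusted p = 0.0485, held in 2 of 6). Fzd3 probe A_51_P190863 differed by -0.78 and -1.01 between the replicate 1 arrays, in null and wild-type RNA, but by -3.11 and -3.11 between the replicate 2 arrays, which include the E11.5 spot that was not above background. Fzd6 differed by -1.07 in null RNA and -0.08 in wild-type RNA, and the shared stage difference of -0.58 was not called (adjusted p = 0.145). With median scaling of the channels in place of quantile scaling, 10 member probes were called, with 2 higher and 8 lower at E11.5.

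Most ratios in the wider pathway were small as well. Of 65 further genes in lists of ligands, receptors, planar polarity proteins, effectors and modulators, 63 were tested by their brightest probe, and their median log2 ratio was 0.00 at E11.5 and 0.02 at E9.5. At E11.5, 1 was called higher and 4 lower in the null RNA, and at E9.5, 10 higher and 6 lower, including Nxn at both stages. Over all probes 8.48% and 22.3% were called at these stages, so counts of 5 and 16 in 63 lie near the background. None of the 8 other Frizzled receptors was called at either stage by its brightest probe. Wnt7b and Wnt7a, ligands of the nervous system and limb ectoderm, were higher at E9.5 with ratios of 0.38 and 0.18 (limma adjusted p = 0.000148 and 0.0486) and stood at 0.15 and 0.11 at E11.5, where neither was called. In the planar polarity core, 1 of 11 tested genes was called higher and 2 lower at E9.5. Celsr2, a relative of Celsr1, was higher (0.26, limma adjusted p = 0.0056). Its probe A_51_P285027 was called higher as well (0.29, adjusted p = 0.00402). Its probe A_52_P350148 was not called (0.12, adjusted p = 0.186, arrays at 0.27 and -0.03). Prickle1 and Prickle3, cytoplasmic partners of Vangl, were lower (-0.28 and -0.24, adjusted p = 0.003 and 0.00867). The 2 E9.5 arrays of Prickle3 were at 0.0018 and -0.49, so that its call came from replicate 2. A second Prickle1 probe, A_52_P503849, was not called at E9.5 (-0.10, adjusted p = 0.295, arrays at 0.12 and -0.33). At E11.5 the receptor-like Ptk7 was lower (-0.21, adjusted p = 0.0452), with arrays at -0.31 and -0.11.

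Among the effectors, the kinase gene Mapk10 was higher at E9.5 (0.23, adjusted p = 0.0119), with arrays at 0.39 and 0.07. Mapk8, which encodes the kinase JNK1, was lower at both stages at its brightest probe, A_52_P657817, with -0.76 at E11.5 and -0.48 at E9.5 (adjusted p = 5.58e-07 and 6.53e-05), but its 3 other tested probes lay between -0.10 and 0.08 at E11.5, and 1 of them was higher at E9.5 (A_52_P558382, 0.21, adjusted p = 0.0315) from arrays of opposite sign, -0.08 and 0.50. Of the cilia effectors Intu (0.19, arrays at 0.09 and 0.29) and of the Fat and Dachsous system Fat4 (0.19, arrays at 0.11 and 0.26) were called higher at E9.5. Of the calcium branch Camk2d (-0.26, arrays at -0.13 and -0.38) and Nlk (-0.19, arrays at -0.05 and -0.33) were called lower. For each of these 4 genes the value moved by over 1.5 times without replicate 2, and the Nlk call held in 1 of 12 alternative settings. Other probes of Intu, Camk2d and Nlk were not called, and the other tested Fat4 probe had 0.10 at E9.5.

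**Figure D4:**
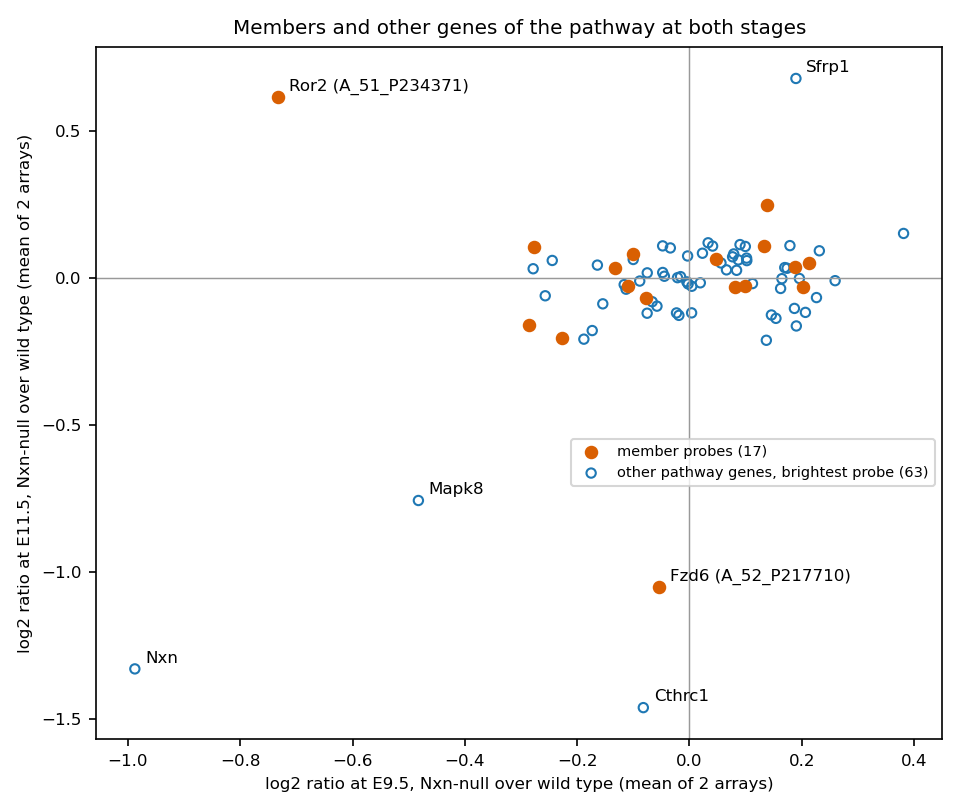
Mean log2 ratio of Nxn-null over wild type at E11.5 (vertical axis) and at E9.5 (horizontal axis) for the 17 tested member probes (filled) and the brightest probe of 63 other pathway genes (open). Most points lie near 0 on both axes; Nxn is low at both stages (-1.33 and -0.99), while Fzd6 (-1.05) and Cthrc1 (-1.46) are low at E11.5 and near 0 at E9.5.

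Among the modulators, Cthrc1 encodes a secreted protein that stabilises the complex of Wnt ligands with Frizzled and Ror2 in the mouse. Its probe A_52_P453785 had ratios of -1.64 and -1.28 at E11.5 and -0.02 and -0.14 at E9.5, with an E11.5 mean of -1.46 ± 0.25 (SD, n = 2 arrays; limma adjusted p = 4.15e-11). A second Cthrc1 probe was well above background in 2 of 8 channels and was not tested, and its mean was -0.42 at E11.5. Sfrp1, a secreted binder of Wnt proteins, was higher at its brightest probe, with 0.68 at E11.5 and 0.19 at E9.5 (adjusted p = 3.02e-07 and 0.0388), but its E9.5 arrays were at 0.36 and 0.02, and the E9.5 call held in 1 of 12 alternative settings. Its other probe stood at -0.09 at E11.5 (limma adjusted p = 0.499). At E9.5 that probe was called higher as well (0.22, adjusted p = 0.0173, arrays at 0.07 and 0.37). Sfrp2, a relative of Sfrp1, and Smurf2, a ubiquitin ligase that acts on Prickle, were called higher at E9.5 (0.21 and 0.20), with arrays at 0.14 and 0.28 for Sfrp2 and at 0.03 and 0.36 for Smurf2, so that the Smurf2 value came mostly from replicate 2. The 3 tested Smurf2 probes had E9.5 means from 0.02 to 0.20. At E11.5 Sfrp2 had -0.12 and was not called, and neither was Smurf2 at its brightest probe.

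Of the Robinow syndrome genes, only Nxn itself was called by the brightest probe. Dvl1 had ratios of -0.04 at E11.5 and -0.11 at E9.5, and Dvl3 had 0.03 and 0.07. The brightest probe of Fzd2, a receptor of Wnt5a, had 0.11 and 0.10 (limma adjusted p = 0.392 and 0.288). A second Fzd2 probe, A_52_P129428, had -1.83 and -1.71 at E11.5 and -1.38 and -1.34 at E9.5, or 29.3% and 39% of the wild-type level (adjusted p = 2.63e-13 and 3.02e-12). It was singled out after its values were seen, it is 1 of 6 probes at least 2-fold lower at both stages (0.024% of all), and which transcript it reads beyond the name in the files was not tested.

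Fzd6 and Cthrc1 stand next to each other in the RefSeq gene order, a point looked up after the values were seen. Over all probes, 5.31% were called lower and 3.17% higher in the null RNA at E11.5. Of the 20 tested genes nearest to Fzd6, 10 on each side, 4 were called lower and 2 higher. The lower ones were Cthrc1, Azin1 (-0.32, adjusted p = 0.00201), Atp6v1c1 (-0.22, adjusted p = 0.0354) and Lrp12 (-0.23, adjusted p = 0.0271). The higher ones were Rspo2 (0.22, adjusted p = 0.0348) and Ywhaz, 10 genes away, at 2.05 ± 0.0013 (SD, n = 2 arrays; adjusted p = 1.48e-13). Another Ywhaz probe, A_52_P225260, had 0.45 and 0.88. Baalc and Slc25a32, which flank the pair, had -0.13 and -0.05 and were not called. In the same windows around each of the other 9 members, 0 to 2 genes were called lower and 0 to 2 higher at E11.5. In those windows 0 genes were at least 2-fold lower at E11.5, against 1 of 20, Cthrc1, in the Fzd6 window. Over all probes 0.156% were at least 2-fold lower. The Fzd6 window was looked up after the values were seen, and whether it stands apart was not tested.

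**Figure D5:**
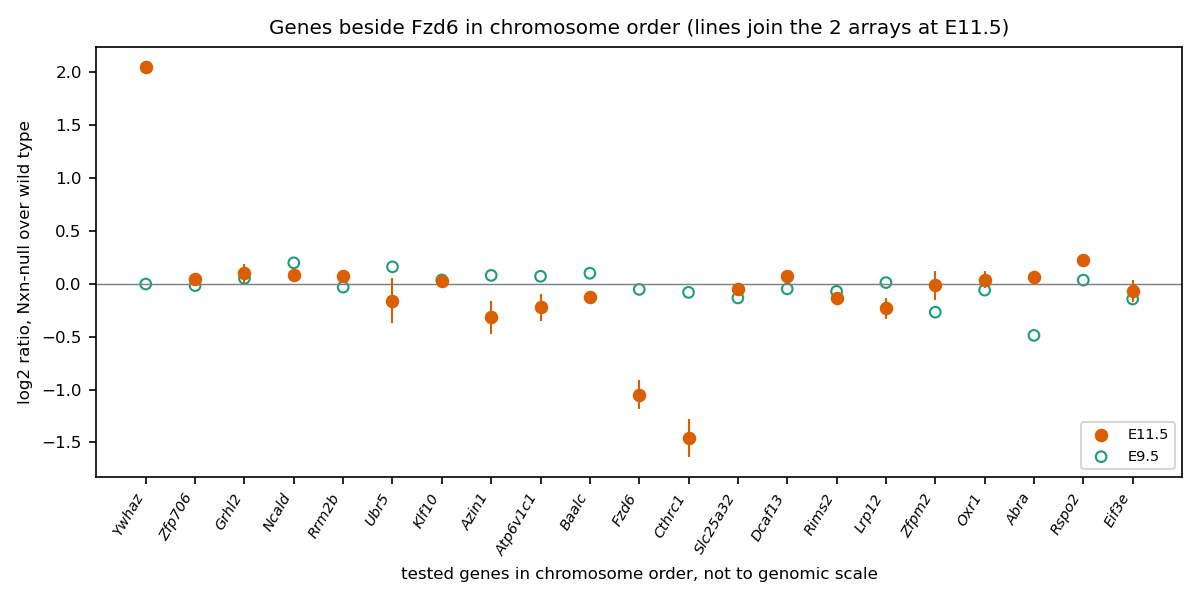
Mean log2 ratio of Nxn-null over wild type (vertical axis) of Fzd6 and the 10 tested genes on each side of it in gene order (horizontal axis, not to genomic scale), filled for E11.5 with a line joining the 2 arrays, open for E9.5. At E11.5 Fzd6 and Cthrc1 lie at -1.05 and -1.46, Ywhaz lies at 2.05, and the remaining genes lie between -0.32 and 0.22. At E9.5 the genes lie between -0.49 (Abra) and 0.20 (Ncald).

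Over the 8 normalised channels, the genes whose brightest probe was most like Wnt5a were Sbno2, Timm17b and Ankrd50 (Pearson correlations of 0.99, 0.97 and 0.97), and those most like Fzd6 were Atxn7l3, Adgrf5 and Ints10 (0.97, 0.97 and 0.96). The channels share arrays and dyes, and 174 and 28 of 14336 genes passed a correlation of 0.9, so these names are descriptive.

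Markers of other cell types moved with the genotype at E9.5, beside every E9.5 ratio above. The 7 heart muscle markers were all lower in the null RNA (median -1.58), with a summed signal of 30800 to 36300 in null against 112000 to 113000 in wild-type RNA. The 7 yolk sac endoderm markers were all lower (median -3.32, with sums of 12500 to 16000 in null against 144000 to 146000 in wild-type RNA), as were 5 of 6 tailbud and posterior markers (median -1.33, 2430 to 2790 against 4270 to 5000). Of 6 neuron markers 5 were higher (median 0.47, 34500 to 35400 in null against 26900 to 27800 in wild-type RNA). The 8 red cell markers were all lower (median -0.64, 228000 to 259000 in null against 406000 to 454000 in wild-type RNA). Of the 5 tested limb bud markers 2 were lower (median 0.01, 4610 to 5270 in null against 7600 to 9880 in wild-type RNA), with Lmx1b not well above background. Of 6 markers of face mesenchyme 3 were higher (median 0.19, 9050 to 9300 against 7840 to 8570). Of 4 placenta markers 2 were higher (median 1.85, 1540 to 1790 against 535 to 565). Tpbpa was not well above background, and Prl2c2 had no tested probe. At E11.5, beside the Fzd6 and Cthrc1 ratios, the 8 red cell markers were all lower as well (median -0.98, 253000 to 338000 in null against 668000 to 725000 in wild-type RNA). The heart muscle, yolk sac endoderm, tailbud and neuron markers had E11.5 medians of 0.12, -0.08, 0.06 and 0.05. Of the cell type lists other than red cell, 2 heart muscle, 1 tailbud and 1 face mesenchyme marker were called higher at E11.5. In the same lists 2 yolk sac endoderm markers and 1 placenta marker were called lower. All 4 sex-linked markers were called at E11.5, with Xist at 5.83 and the Y-linked Eif2s3y, Ddx3y and Kdm5d at -3.59, -2.97 and -1.36. At E9.5 Xist was called lower at -0.43 (limma adjusted p = 4.14e-05), and those Y-linked genes were at 0.09, 0.08 and -0.01 and were not called. By these sex-linked markers, the sex make-up of the null and wild-type RNA differed at E11.5. Sex and genotype therefore cannot be told apart in the E11.5 ratios. The part of the cell type and sex-linked markers in the member ratios was not tested.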

How the data were processed

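In the scanner files the authors deposited, values are, per the file headers, linear intensity of each spot and of its surroundings in both channels, as written by Agilent Feature Extraction (version 9.1.3.1 per the file headers, 9.5.3.1 per the submitters' processing notes). The deposited value table holds a log10 ratio that equals that of the processed signals, turned to null over wild type, and was used through those signals as an alternative. No genome build is given in the sources used here, and no coordinates or sequences are printed. Mean signals were corrected by normexp with an offset of 50 and normalised by loess within array with control spots at weight 0 (limma 3.58.1, R 4.3.3). Of 41174 gene probes, 302 with an outlier mark were left out, and 24984 were tested because at least 1 genotype was well above background on both arrays of a stage. Ratios are log2 of null over wild type, with 1 row per probe. Single stages and their difference were tested by limma on 4 arrays with a dye term (1 residual degree of freedom, prior 17.98), which compares the RNAs hybridised. The shared ratio was tested on 2 stage averages (prior 2.98), and stages on single channels after Aquantile, over the 2 genotypes. P-values were adjusted by Benjamini-Hochberg over all probes at 0.05. Limma's SE borrows from all probes. Replicate numbers mark the dye orientation, per the labels. Names came from accession for 22951 probes, current symbol for 6659, older symbol for 3109 and the files for 8455, with RefSeq of GRCm38.p6 used for names and gene order only. Named were all member probes and, per pathway list, up to 3 called genes with the largest ratio by brightest probe, every Robinow gene, and the 3 genes most like Wnt5a and Fzd6; Ptk7, Smurf2 and the neighbours of Fzd6 were named after their values were seen. One gene that the rule names is not reported here. The scripts were tested on simulated data. Members, lists and tests were chosen with earlier results of these data known. Figures used Python 3.11.15 and matplotlib 3.10.9.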

Additional observations from a re-analysis of the deposited data

Results flagged for a closer look

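The genotype ratio of 3 member probes differed between the stages by limma. Fzd6 had a difference of -0.996 (E11.5 minus E9.5, adjusted p = 1.03e-06), with ratios of -1.19 and -0.91 on the E11.5 arrays and 0.05 and -0.16 on the E9.5 arrays. Ror2 probe A_51_P234371 had a difference of 1.35 (adjusted p = 1.55e-09), with 1.31 and -0.08 at E11.5 and 0.06 and -1.53 at E9.5, and its green local background was 240 on E11.5 replicate 1 and 399 on E9.5 replicate 2, the arrays with the far values. Vangl2 probe A_52_P496775 had a difference of 0.38 (adjusted p = 0.00655), with 0.0037 and 0.21 at E11.5 and -0.39 and -0.17 at E9.5, while the other Vangl2 probes had differences of -0.15 to 0.17 that were not called.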

How the results depend on the processing

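The fit with a dye term has 1 residual degree of freedom. At E11.5, 2118 probes were called (791 higher, 1327 lower in the null RNA); the count was 0 with the Feature Extraction log ratio (4446 at an unadjusted p under 0.05), 1293 with the mean of all probes per gene, 244 with median centring (132 higher, 112 lower), 1320 with an offset of 10, and 17 to 216 without 1 array. At E9.5, 5564 were called (2198 higher, 3366 lower), 1296 by the Feature Extraction log ratio, 762 with median centring (164 higher, 598 lower), and 340 to 569 without 1 array. For the difference between stages, 2920 were called (1767 higher, 1153 lower), 178 by the Feature Extraction log ratio, 1890 with the mean of all probes, 411 with median centring (337 higher, 74 lower), and 108 to 296 without 1 array. The dye term stands for the replicate number as a block; without that replicate block, 50 probes were called at E11.5, 540 at E9.5 and 174 for the difference. The shared ratio had 0 calls except with the 4 arrays as separate measurements (70).

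Of the 17 member probes, 3 were called at E11.5, and 0 with the Feature Extraction log ratio, 1 with no replicate block and 0 to 1 without 1 array. At E9.5, 7 were called, and 1 with the Feature Extraction log ratio, 1 with median centring, 3 with no filter on dim probes, 0 with no replicate block and 0 without any 1 array. For the difference 3 were called, and 1 with the Feature Extraction log ratio, 0 with no replicate block and 0 to 1 without 1 array. For the stage difference 5 were called, and 10 with median scaling.

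Probes at least 2-fold apart numbered 52 at E11.5, and 240 with the Feature Extraction log ratio, 26 with the mean of all probes, 135 with an offset of 10 and 46 to 174 without 1 array. At E9.5 they numbered 174, and 736 with the Feature Extraction log ratio, 115 with both genotypes above background on all arrays, 296 with an offset of 10 and 174 to 310 without 1 array. At both stages they numbered 7, and 46, 4, 3 and 13 with the Feature Extraction log ratio, both genotypes above background, the mean of all probes and an offset of 10, and 5 to 10 without 1 array.

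Signs turned for few called values. Ror2 probe A_51_P234371 turned to -0.60 at E11.5, 1.46 at E9.5 and -2.06 for the difference with the Feature Extraction log ratio, to -0.37, 0.92 and -1.29 with no local background subtraction (added after the data were seen), and ran from -0.077 to 1.31 at E11.5 and from -1.53 to 0.061 at E9.5 without 1 array of the stage. Fzd3 probe A_51_P190863 turned to -0.049 at E11.5 and -0.55 for the difference with no local background subtraction and to -0.036 where another probe stood for the gene, and ran from -0.021 to 0.52 at E11.5 without 1 array. Ryk ran from -0.19 to 0.60 (A_52_P544017, E9.5) without 1 array, and turned to a called stage difference of -0.32 (A_51_P384148, median scaling), and Prickle3 ran from -0.49 to 0.0018 (E9.5) without 1 array. The causes were not tested. Of the values of single probes under all alternatives, 1100 stayed the same, 224 lost their call, 13 gained a call, 85 moved and 15 turned. The same means called in both settings with the same sign, or called in neither and within the SD of the main value, where the sign could differ. Moved means called in neither and beyond that SD, and turned means a change of sign with a call in at least 1 of the settings. Saturation touched 0 to 7 probes per channel, so signal over background was the limit for dim probes such as Ror1 A_51_P453446.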
